A study of Mus musculus with 12 samples.

Results

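Liver organoids in which Yap was kept on during culture were compared with organoids in which it had been turned off. The comparison used 6 of the 12 arrays of the series, chosen by label alone: the 3 named Yap Organoid Plus Dox (Yap-on 1 to 3) and the 3 named Yap Organoid Minus Dox (Yap-off 1 to 3). All were organoids on a C57Bl6 background that, by the labels, had experienced 3 weeks of Yap expression in the liver followed by 2 weeks of growth in culture. Dox, the inducer, was present in the culture medium of the Yap-on group and absent from that of the Yap-off group. By the labels, the treatment thus differed in the last 2 weeks and was alike in the first 3. RNA was amplified and hybridised to Affymetrix mouse gene arrays. The promoter or cell type that drove Yap, the species of the Yap sequence and the animals behind each replicate are not given in the sources used here. The p-values therefore measure only the spread between these samples, which may be technical.

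Yap is a transcriptional coactivator. The kinases of the Hippo pathway, among them the Lats kinases, phosphorylate it and keep it out of the nucleus, and nuclear Yap binds TEAD factors at the promoters and enhancers of its target genes. In the adult liver Yap is more abundant in bile duct cells than in hepatocytes, the cells that secrete plasma proteins and carry out most of the metabolism of the organ.

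Levels are log2 intensities throughout, a difference is Yap on minus Yap off on that scale, and a gene is said to have risen or fallen when its adjusted p-value in limma was under 0.05. The 6 arrays had median intensities of 13.81 to 15.21 on the linear scale. Across genes, which are not independent replicates, the Yap-on arrays correlated with each other at 0.9923 to 0.9953, the Yap-off arrays at 0.975 to 0.9825, and arrays of different groups at 0.8768 to 0.8959. The groups also differed in sex-linked transcripts. Xist, the RNA of the inactive X chromosome, averaged 3.16 with Yap on and 8.89 with Yap off (difference -5.73, adjusted p = 1.88e-06), and Kdm5d, Uty and Eif2s3y of the Y chromosome rose by 3.21, 3.36 and 4.65. By these transcripts all Yap-on arrays read as male and all Yap-off arrays as female, so the groups cannot be taken as parts of the same cultures. The difference in sex runs along with every result that follows, and it cannot be told apart from that of Yap. Of 739 genes on the X chromosome 106 rose (14.3%, against 19.1% of all genes) and 72 fell (9.74%, against 12%), and 6040 genes were called when the genes of both sex chromosomes were left out. Leaving these genes out does not remove the difference in sex from the other chromosomes, so these counts cannot separate sex from Yap.

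Many genes differed between the groups, and the largest differences were lower levels of liver transcripts with Yap on. Of 19937 genes 6210 were called (31.1%), of which 3812 were higher (19.1% of all genes) and 2398 lower (12%). The median difference over all genes was -0.08. Most calls were small, since 2202 of the higher and 1486 of the lower genes differed by less than 2-fold. At 8-fold or more the balance was the other way, with 157 genes higher and 286 lower, and at 64-fold or more 14 were higher and 70 lower. Groups did not overlap, meaning that all 3 arrays of a group lay above all 3 of the other, for 10665 genes (53.5%). Without Yap-on 1 the fit called 3766 genes, 2497 higher and 1269 lower, without Yap-on 2 it called 4066, 1374 of them lower, and without Yap-on 3 it called 1448 lower genes. When all 12 arrays shared 1 estimate of the spread, the same comparison called 2286 genes. The other arrays are of other cells and conditions and add their own spread to that fit. Calls lost in it may therefore depend on arrays outside the comparison. In a bulk sample a lower signal can mean fewer cells of a type or less RNA per cell, and these arrays cannot separate the 2.

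**Figure D1:**
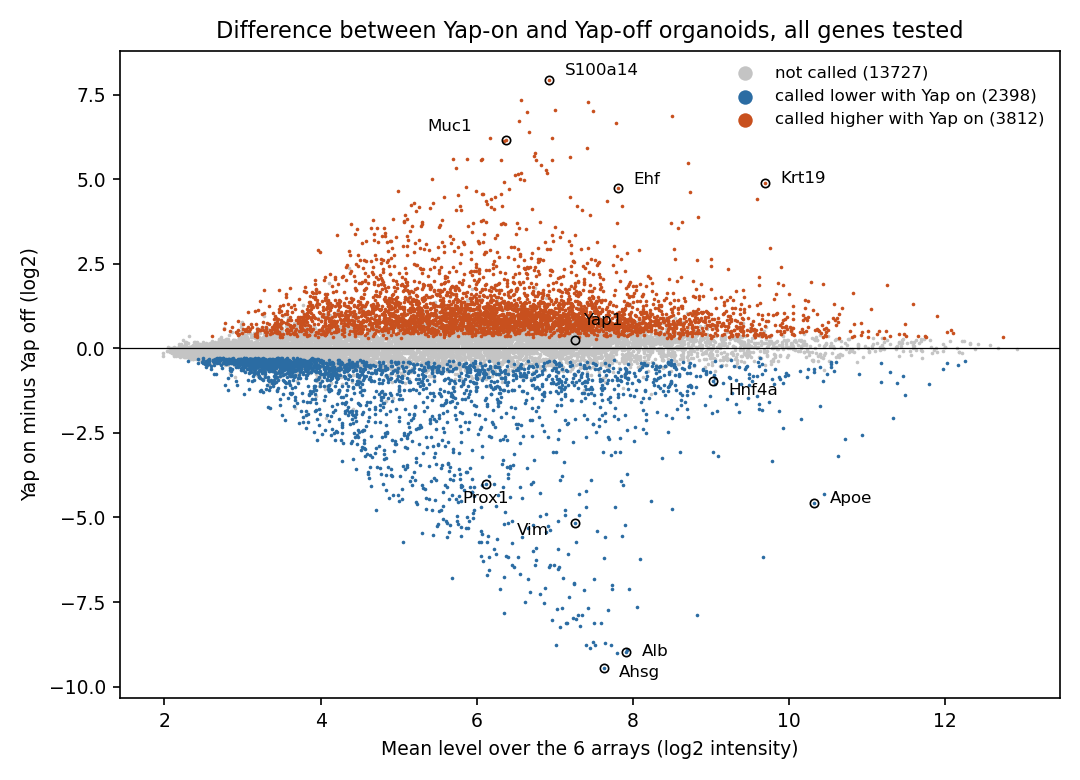
Difference between groups (Yap on minus Yap off, log2) against the mean level over the 6 arrays (log2 intensity), with 1 point for each of the 19937 genes. Genes called higher (3812) and lower (2398) in limma are coloured. The points reach further down than up, with Ahsg at -9.46 and S100a14 at 7.93.

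Ranks by difference outside the lists, by spread and by level leave out, here and below, sex-linked genes and symbols of clones, predicted genes, microRNAs and large multigene families. The 5 largest increases among ranked genes took them from background to among the strongest signals of the array. S100a14, a calcium-binding protein of epithelia, stood at 10.92, 11.02 and 10.73 in the Yap-on arrays and at 2.93, 2.96 and 3.00 in the Yap-off arrays (difference 7.93 ± 0.11 SE, adjusted p = 1.21e-07). Aspa, the enzyme that cleaves N-acetylaspartate, stood at 10.32, 10.07 and 10.32 against 2.94, 3.00 and 2.74 (difference 7.35 ± 0.12). For Ctse, a protease of gastric epithelium, the levels were 11.17, 11.11 and 10.88 against 4.07, 3.68 and 3.60. In each of these genes the 3 Yap-on arrays lay close together, above 10, and the Yap-off arrays lay below the array medians of 4.16 to 4.28. Anxa1, a phospholipid-binding annexin, read 10.68, 10.47 and 10.42 with Yap on and 3.41, 3.86 and 3.14 with Yap off, and Prap1, a secreted protein of gut epithelium, 10.98, 10.76 and 11.25 and 3.65, 4.31 and 3.99. The Yap-off levels of these genes limit how exactly their increases of 7.05 and 7.01 can be measured.

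The 5 largest decreases among ranked genes were all in secreted liver proteins. The fetuin gene Ahsg stood at 2.81, 3.04 and 2.84 with Yap on and at 12.23, 12.37 and 12.47 with Yap off, a difference of -9.46 ± 0.11 (adjusted p = 1.21e-07). The iron carrier transferrin (Trf) was at 3.49, 3.22 and 3.20 against 12.18, 12.27 and 12.44, and albumin (Alb) at 3.68, 3.29 and 3.31 against 12.26, 12.42 and 12.54. Both read near background in every Yap-on array and near the top of the scale in every Yap-off array. Haptoglobin (Hp), which binds free hemoglobin, fell by 8.92 and the fibrinogen chain Fgg by 8.84. Of the genes that fell at least 2-fold, 415 of 912 averaged below 3.93 with Yap on. This limit is the highest array median over all rows, named or not, and lies below the medians over genes. Among those that rose at least 2-fold, 304 of 1610 averaged below the same limit with Yap off.

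The promoters of several of these genes are shown because their genes, or close relatives on the same lists, made large moves and their windows hold a motif of HNF1 or TEAD factors. Each line gives the 250 bases upstream of the gene start in RefSeq (GRCm38.p6), 5′ to 3′ on the gene's strand. Capitals mark GTTAAT, the half-site of HNF1 factors, or GGAATG, a motif of TEAD factors, on either strand. These 6 genes were chosen after their values and their matches were seen.
Anxa1: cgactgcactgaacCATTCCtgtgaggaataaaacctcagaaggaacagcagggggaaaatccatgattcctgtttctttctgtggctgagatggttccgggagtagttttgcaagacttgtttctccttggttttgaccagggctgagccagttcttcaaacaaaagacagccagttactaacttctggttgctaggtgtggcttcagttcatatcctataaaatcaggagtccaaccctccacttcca
Prap1: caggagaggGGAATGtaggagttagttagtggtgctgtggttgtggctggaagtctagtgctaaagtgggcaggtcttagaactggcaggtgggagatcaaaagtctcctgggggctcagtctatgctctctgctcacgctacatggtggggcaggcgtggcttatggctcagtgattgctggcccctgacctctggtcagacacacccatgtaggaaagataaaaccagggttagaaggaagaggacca
Elf3: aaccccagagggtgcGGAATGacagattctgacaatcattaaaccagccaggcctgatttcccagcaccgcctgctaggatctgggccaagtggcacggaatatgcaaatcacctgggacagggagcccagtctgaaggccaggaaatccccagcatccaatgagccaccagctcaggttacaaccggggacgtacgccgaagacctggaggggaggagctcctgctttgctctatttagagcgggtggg
Alb: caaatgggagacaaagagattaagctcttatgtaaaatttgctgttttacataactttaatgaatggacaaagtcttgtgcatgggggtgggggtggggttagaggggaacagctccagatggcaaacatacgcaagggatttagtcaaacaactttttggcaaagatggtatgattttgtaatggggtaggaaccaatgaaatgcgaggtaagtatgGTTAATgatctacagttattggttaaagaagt
Fga: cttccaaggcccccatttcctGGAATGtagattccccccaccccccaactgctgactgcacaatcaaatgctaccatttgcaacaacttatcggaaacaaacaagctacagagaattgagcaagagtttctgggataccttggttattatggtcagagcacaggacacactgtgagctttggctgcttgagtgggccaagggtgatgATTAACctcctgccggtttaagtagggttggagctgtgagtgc
Fgb: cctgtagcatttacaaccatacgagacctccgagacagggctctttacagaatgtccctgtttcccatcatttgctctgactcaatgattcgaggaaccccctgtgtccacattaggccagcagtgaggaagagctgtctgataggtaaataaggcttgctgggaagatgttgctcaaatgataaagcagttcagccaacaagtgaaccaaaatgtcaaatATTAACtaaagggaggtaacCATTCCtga
The first 3 rose and lie at chr19:20390672-20390921, chr7:140093146-140093395 and chr1:135258473-135258722. Their TEAD letters begin 236, 241 and 235 bases upstream of the start. Alb lies at chr5:90460620-90460869 and holds GTTAAT 32 bases upstream. The neighbouring fibrinogen genes Fga (chr3:83025903-83026152) and Fgb (chr3:83049864-83050113) hold it 43 and 29 bases upstream, on the opposite strand, and they also hold the TEAD letters 229 and 9 bases upstream. The windows of Fgg, the remaining fibrinogen gene, of Ahsg, the ranked gene that fell most, and of Aspa hold neither motif. Anxa1, Elf3 and Fgb lie on the minus strand and the others on the plus strand. GTTAAT was present in 6.43% of all 32851 promoter windows of that length, and GGAATG in 12.6%. Among genes with a window, GTTAAT was in 34 of 225 that fell at least 8-fold (15.1%) and in 4 of 123 that rose at least 8-fold (3.25%). The TEAD letters were in 16.4% of the first and 22.8% of the second set. Without the 8-fold limit they were in 12.5% of 3071 genes called higher and 15% of 1854 called lower. Among all 15613 tested genes with a window the share was 13.2%. The full set called higher was thus not richer in the TEAD letters. GTTAAT was in 4.72% of the genes called higher and 7.77% of those called lower, against 6.6% of the tested genes. These are shares of letters in a short window and say nothing of binding.

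Because background limits the measured difference in both directions, genes at 6 or more in both groups were examined separately. Of 4858 such genes 2098 were called (43.2%), and 486 rose and 191 fell at least 2-fold. The largest increase was that of Krt19, the keratin of bile ducts, at 12.13, 12.25 and 12.01 against 7.56, 6.997 and 7.18 (difference 4.88 ± 0.16, adjusted p = 2.25e-06). Its groups were more than 4 log2 units apart. The surface protein mesothelin (Msln) rose by 4.42, the membrane protease Tmprss2 by 3.71, galectin-3 (Lgals3) by 3.55 and Krt7, the other duct keratin, by 2.97. Pglyrp1, which binds bacterial cell walls, rose from 7.83, 5.23 and 6.22 to 11.17, 11.002 and 10.97, so the Yap-off arrays were spread over more than 2 log2 units while the Yap-on arrays agreed closely. Rbp2, an intestinal retinol carrier, had the same form, with 6.11, 8.48 and 6.09 in the Yap-off arrays against 10.62, 10.74 and 10.98. The remaining members of the 15 were Pgap1, Zfp809, Fxyd3, Prr15l, Ano1, Eps8l3, Anxa13 and Mllt3, with differences from 2.64 to 3.73.

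The 15 largest decreases among genes measured in both groups began with apolipoproteins. Apoa1, the main protein of high-density lipoprotein, stood at 6.72, 7.22 and 5.82 with Yap on and 12.51, 12.79 and 12.93 with Yap off (difference -6.16 ± 0.34). Apoe stood at 8.37, 7.37 and 8.37 against 12.48, 12.69 and 12.65, and Apoc1 at 9.26, 7.61 and 7.99 against 12.52, 12.60 and 12.69. Here the Yap-on arrays were the more scattered, and all stayed above 7 for Apoe and Apoc1. Selenop, the selenium carrier of plasma, fell by 3.33, the kynurenine aminotransferase Kyat1 by 3.73 and the complement factor Cfb by 3.17. The transcription factor Foxa3 fell by 3.07 and the chemokine Cxcl1 by 3.23. Tff3, a trefoil peptide of mucous epithelia, had 1 Yap-on array apart from the others, at 8.19, 10.59 and 8.34 against 11.97, 12.25 and 12.41 (difference -3.17 ± 0.61, adjusted p = 0.00836). The set was completed by Apoc4, Tmem150a, Lgals1, Gstz1, Ndrg2 and Bex1, with differences from -4.74 to -3.05.

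**Figure D2:**
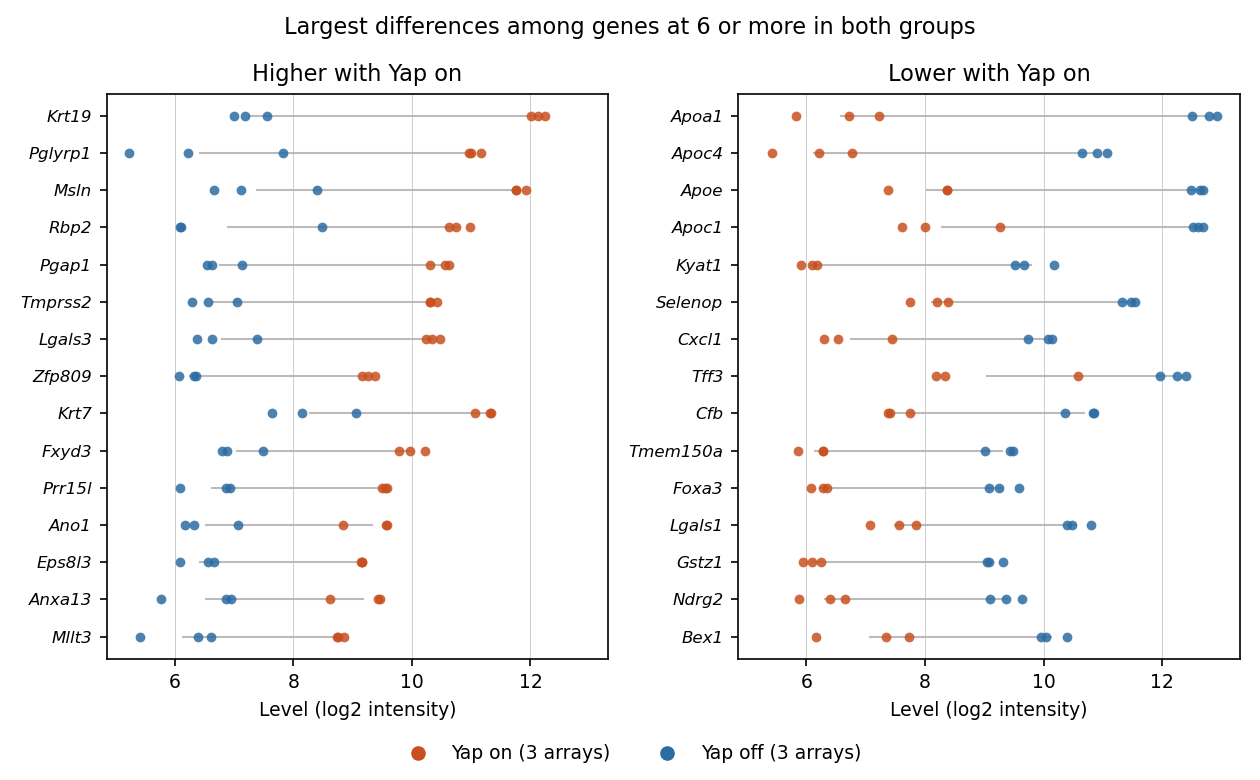
Levels (log2 intensity) in each of the 3 Yap-on and 3 Yap-off arrays for the 15 genes with the largest increase (left) and decrease (right) among called genes at 6 or more in both groups. Grey lines join the group means, and only ranked genes whose groups did not overlap were picked. Yap-off arrays are spread widest for Rbp2 and Pglyrp1 and Yap-on arrays for Tff3.

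Secreted proteins and metabolic enzymes of hepatocytes fell nearly list by list. All 19 measured hepatocyte markers fell (100%, against 12% of all genes), with a median difference of -6.46, and in each fit that left out 1 of the 6 libraries the same number fell. Of 29 plasma carriers and acute phase proteins 27 fell (median -6.80), among them Afp, the albumin of the fetal liver (8.77), the retinol carrier Rbp4 (8.12) and the protease inhibitor Serpina3n (8.11), given as sizes of decrease. Lcn2, an iron-siderophore binder of inflamed epithelia, fell less, from a mean of 12.22 to 9.66. Of 20 apolipoproteins and lipoprotein enzymes 18 fell (median -4.44), with Apoc3 at -8.71, Apoh at -8.03 and Lcat, which esterifies plasma cholesterol, at -4.84. Of 36 complement and coagulation genes 33 fell (median -4.48), with plasminogen (Plg) at -8.01, vitronectin (Vtn) at -7.89 and prothrombin (F2) at -7.88. No member of these 4 lists rose. The lists share members, such as Alb, Trf, Fgb, Apoa1 and Apoa2, so their counts are not independent. Hepatocyte markers such as Cps1, Tat and Cyp3a11 are also counted on the enzyme lists below.

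The decrease was not equal over all products of hepatocytes. Transthyretin (Ttr), a thyroid hormone carrier, stood at 11.20, 11.32 and 11.29 with Yap on and 12.26, 12.38 and 12.33 with Yap off, a difference of -1.05 ± 0.09 (adjusted p = 0.000277). Ambp, the precursor of alpha-1-microglobulin and bikunin, stood at 10.95, 10.85 and 10.80 against 11.74, 11.94 and 12.01. Both fell by about 1 log2 unit and stayed among the strongest signals in the Yap-on organoids, whereas Alb in the same arrays read at background. Ttr and Ambp were singled out after their values were seen.

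Enzymes followed by pathway. Of 37 urea cycle and amino acid genes 32 fell and 3 rose (median -3.46). These were 86.5% and 8.11%, against 12% and 19.1% of all genes. Tryptophan dioxygenase (Tdo2) stood at 2.38, 2.56 and 2.39 against 10.10, 10.28 and 10.39. Arg1, the last enzyme of the urea cycle, stood at 3.79, 3.83 and 3.73 against 9.67, 10.29 and 10.59. Glutamine synthetase (Glul) was among the 3 that rose, from 7.75, 8.52 and 7.51 to 9.74, 9.69 and 9.64 (difference 1.76, adjusted p = 0.00231). Of 19 genes of gluconeogenesis and glycogen 13 fell and 2 rose (68.4% and 10.5%, median -2.48), and without Yap-on 1 only 1 rose. Fbp1 and Pck1, enzymes of glucose synthesis, fell by 5.04 and 4.70, and Igfbp1, the insulin-regulated binding protein that was on the same list, by 8.13. Of 36 genes of fatty acid oxidation and ketogenesis 12 fell and 2 rose (33.3% and 5.56%, median -0.33). Fabp1, the fatty acid binding protein of liver and gut, fell by 6.28, while the mitochondrial dehydrogenase Acadl rose by 0.82.

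Drug metabolism split within its families. Of 38 cytochrome P450 genes 23 fell and 4 rose (60.5% and 10.5%, against 12% and 19.1% of all genes, median -1.11). Cyp3a11 read 3.18, 2.96 and 3.61 with Yap on and 10.09, 10.03 and 10.06 with Yap off, and Cyp2d26 fell by 6.39 and Cyp2c70 fell by 5.202. Cyp2s1, a cytochrome of surface epithelia, went the other way, from 3.71, 4.90 and 4.48 to 9.86, 10.41 and 9.80 (difference 5.65 ± 0.32, adjusted p = 3.06e-05). Of 36 conjugating enzymes 20 fell and 8 rose (55.6% and 22.2%, against 12% and 19.1% of all genes, median -0.79). Within this list the glutathione transferase Gstm3 fell by 3.93 and Gsta4 rose by 1.95, and the sulfotransferase Sult1d1 fell by 5.24 while Sult1c2 rose by 3.78.

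Transporters of hepatocytes mostly fell, and those of duct cells rose more often than they fell. Of 30 genes of bile acid synthesis and organic ion transport 17 fell and 4 rose (median -0.56). These were 56.7% and 13.3%, against 12% and 19.1% of all genes, and 2 rose without Yap-on 1. The bile acid importer Slc10a1 fell by 3.64, the canalicular exporters Abcb11, for bile acids, and Abcb4, for phospholipid, by 2.48 and 3.25, and the bile acid ligase Slc27a5 fell by 4.82. Atp8b1, a lipid flippase of the apical membrane, rose by 2.20. Of 34 ion and water transporters of duct cells 16 rose and 6 fell (median 0.26). These were 47.1% and 17.6%, against 19.1% and 12% of all genes. The potassium channel subunit Kcne3 stood at 9.40, 9.53 and 9.83 against 4.01, 3.89 and 3.77 and its partner Kcnq1 at 9.004, 9.01 and 9.19 against 3.70, 4.12 and 4.32, so the 2 rose together by 5.70 and 5.02. The sodium channel subunit Scnn1a, carbonic anhydrase 2 (Car2) and the calcium-activated chloride channel Ano1 rose by 5.41, 5.33 and 2.81. The 6 decreases in this list became 2, 2 and 3 without Yap-on 1, 2 and 3. Cftr, the chloride channel of bile ducts, rose by 0.58 (adjusted p = 0.0216), but both group means, 3.06 and 2.48, lay below the array medians.

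**Figure D3:**
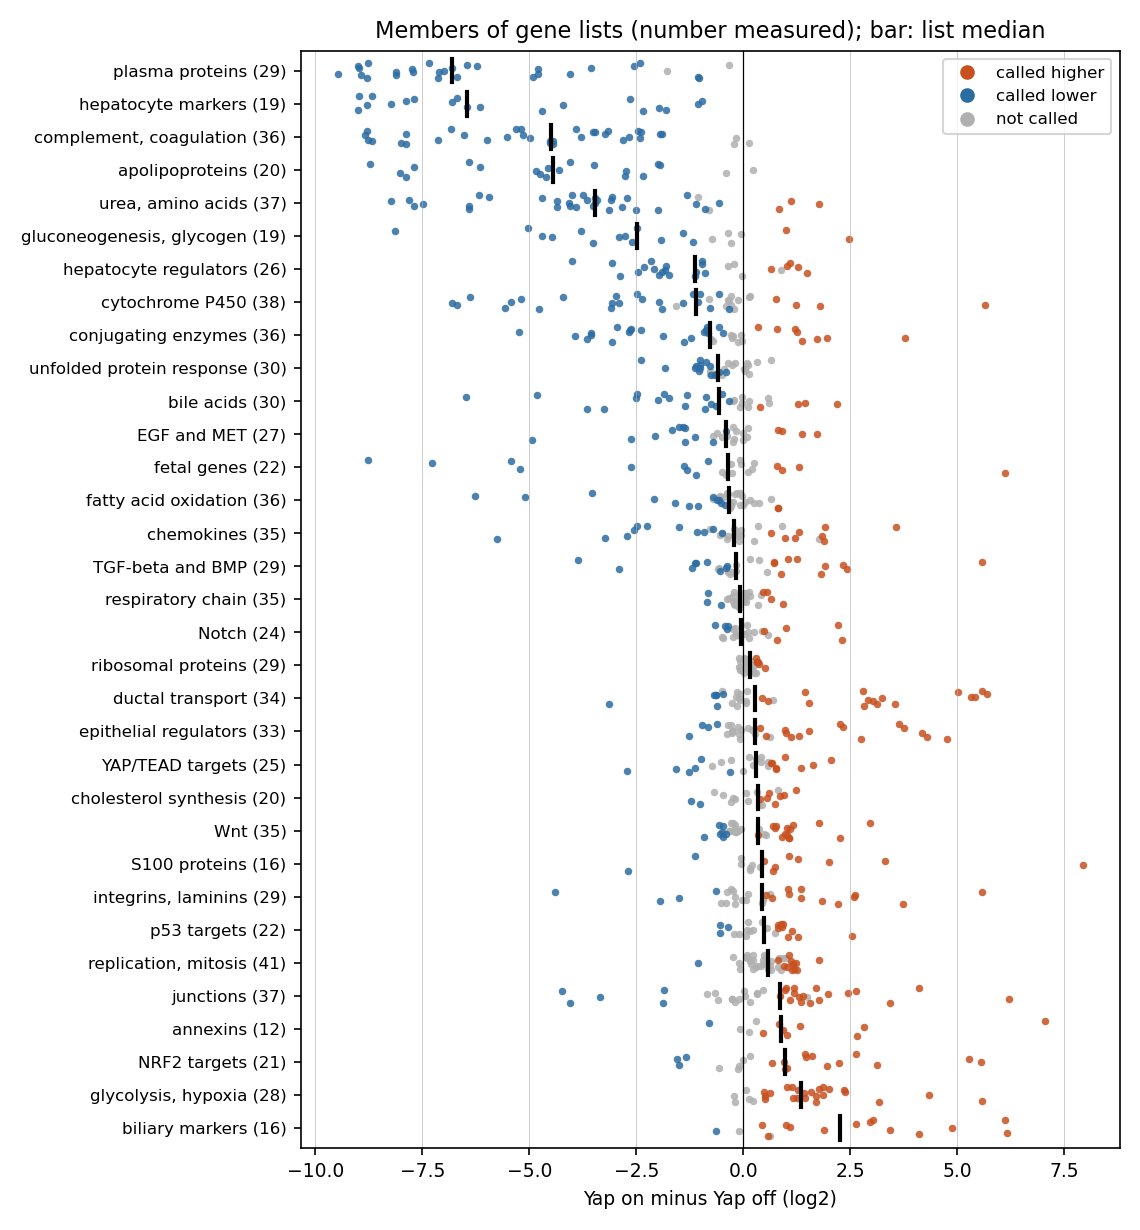
Difference between groups (Yap on minus Yap off, log2) for the members of 33 gene lists, with the number of measured members beside each name, 1 point per gene and a bar at each list median. Medians run from -6.80 for plasma proteins to 2.26 for biliary markers, and cytochrome P450 genes, conjugating enzymes and bile acid genes have called members on both sides of 0.

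The counts of these lists depended on the fit to different degrees. The fit with all 12 arrays also carries the spread of arrays of other cells and conditions. With all 12 arrays, where 11.5% of all genes were called, decreases stayed frequent among complement and coagulation genes (30), urea cycle and amino acid genes (29), plasma proteins (22), apolipoproteins (16) and hepatocyte markers (15). Fewer fell among hepatocyte regulators (11), bile acid genes (10), cytochromes P450 (14), conjugating enzymes (9), gluconeogenesis genes (8), fatty acid oxidation genes (4), fetal genes (4), EGF and MET genes (3), chemokines (3), TGF-beta and BMP genes (3) and matrix proteases (2). Among increases, 11 ductal transporters, 9 junction genes, 8 epithelial regulators, 7 NRF2 targets, 7 matrix proteases, 6 integrins and laminins, 6 Wnt genes, 5 S100 proteins and 2 annexins were called. There were 2 increases each among conjugating enzymes, Hippo regulators, p53 targets, Notch genes and TGF-beta and BMP genes, 1 among chemokines, and none among hepatocyte regulators, cholesterol synthesis, respiratory chain, interferon or ribosomal genes. Wnt, Notch and Hippo genes had no decrease. With values below 5 raised to 5, where 12.1% of all genes were called, 11 cytochromes P450 and 4 bile acid genes fell, and 5 Wnt genes, 2 p53 targets, 2 cholesterol synthesis genes and 1 hepatocyte regulator rose.

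Biliary and epithelial genes were higher. Of 16 measured biliary markers 13 rose (81.2%, against 19.1% of all genes) and 1 fell (median 2.26). The mucin Muc1 stood at 9.71, 9.51 and 9.15 against 3.22, 3.41 and 3.24, Prom1, a marker of ducts and progenitors, at 9.56, 9.48 and 9.18 against 3.10, 3.60 and 3.17, and the adhesion molecule Epcam at 8.84, 8.80 and 8.64 against 4.67, 4.81 and 4.47. Muc1 and Prom1 were below the array median in every Yap-off array and Epcam was slightly above it. The tight junction protein Cldn7 and the water channel Aqp1 rose by 2.64 and 3.02. Not all duct genes followed. Sox9, the transcription factor of bile ducts, was already high with Yap off, at 7.54, 7.96 and 7.76 against 8.16, 8.11 and 8.88 with Yap on, and did not pass (difference 0.63 ± 0.23, adjusted p = 0.0771). Bicc1, an RNA-binding protein of ducts, differed by -0.10 (adjusted p = 0.63). Sctr, the receptor for secretin, was the member that fell, by 0.63 (adjusted p = 0.0343), and its call was lost without Yap-on 1, 2 or 3, when no member of the list was called lower. With all 12 arrays in the fit 5 biliary markers rose, and none fell.

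Keratins, the intermediate filaments of epithelia, rose for 8 of 17 members (47.1%, against 19.1% of all genes) and fell for none (median 0.31). Krt8 and Krt18, which pair in all simple epithelia, were strong in both groups, Krt8 at 12.42, 12.41 and 12.28 against 11.38, 11.41 and 11.44 and Krt18 at 12.36, 12.42 and 12.27 against 11.82, 11.86 and 11.72, and rose by 0.96 and 0.55. Krt19 and Krt7 rose far more, so the keratins differed mainly in these. Without Yap-off 3 or Yap-on 2, 5 keratins rose, and none rose with all 12 arrays. Vimentin (Vim), the filament of mesenchymal and cultured cells, moved the opposite way, from 10.13, 9.88 and 9.54 to 4.66, 4.52 and 4.85 (difference -5.17 ± 0.17, adjusted p = 2.25e-06).

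Members of the same junction gene families differed in opposite directions. Of 37 junction and polarity genes 18 rose and 5 fell (48.6% and 13.5%, against 19.1% and 12% of all genes, median 0.85). Cldn1 read 3.22, 3.60 and 3.53 with Yap on and 8.09, 7.09 and 7.88 with Yap off, whereas Cldn4 read 8.88, 9.23 and 8.30 and 5.63, 5.79 and 4.69. N-cadherin (Cdh2), the classical cadherin that hepatocytes share with other tissues, fell by 4.04, while E-cadherin (Cdh1) rose by 0.99. The gap junction genes split as well, with Gjb2 at -3.35 and Gja1 at 2.45. In all 6 of these genes the groups did not overlap, which held for 53.5% of all genes. Rab25, a GTPase of apical recycling in epithelia, rose by 6.22.

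Transcripts for adhesion to the basement membrane and for matrix proteolysis went both ways, with more increases than decreases. Of 29 integrins and laminins 12 rose and 4 fell (41.4% and 13.8%, against 19.1% and 12% of all genes, median 0.44). The chain Itgb6, found in remodelling epithelia, stood at 8.72, 8.61 and 8.68 against 3.02, 3.09 and 3.15 (difference 5.58 ± 0.09, adjusted p = 1.65e-07). Itgb4 and Itga6, which form the hemidesmosome integrin, rose by 2.21 and 2.60, and the laminin chains Lamb3 and Lama3 by 3.74 and 1.85. Nidogen (Nid1), a linker of basement membranes, and Itga5, of the fibronectin receptor, fell by 4.40 and 1.96. Of 35 matrix proteases and inhibitors 13 rose and 7 fell (37.1% and 20%, against 19.1% and 12% of all genes, median -0.09). Mmp7, a protease of ductal epithelium, read 11.94, 11.96 and 11.93 in the Yap-on arrays and 5.96, 4.45 and 4.78 in the Yap-off arrays, while the inhibitors Timp1 and Timp4 fell by 2.78 and 3.05.

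Most annexins and many S100 proteins were called. Of 12 annexins 8 rose and 1 fell (66.7% and 8.33%, against 19.1% and 12% of all genes, median 0.88). Apart from Anxa1, the increases ran from 0.46 for Anxa7 to 2.82 for Anxa8, and Anxa6 fell by 0.79. Of 16 S100 proteins 8 rose and 2 fell (50% and 12.5%, median 0.43). S100a14 stood out among them, S100b rose by 3.30, S100g fell by 2.69, and S100a6 was near the top of the scale in both groups, at 12.42, 12.42 and 12.37 against 12.27, 12.31 and 12.14 (adjusted p = 0.213). Of 34 mucins and gastrointestinal genes 9 rose and 4 fell (26.5% and 11.8%, against 19.1% and 12% of all genes, median 0.12). Without Yap-off 1, 7 fell. Villin (Vil1), of the brush border, and the galectin Lgals4 rose by 5.16 and 5.91, while the trypsin inhibitor Spink1 fell by 7.22. The median of this list was near that of all genes, so the increases were those of single members.

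The median decrease of hepatocyte transcription factors was smaller than that of hepatocyte markers. Of 26 measured, 17 fell and 5 rose (65.4% and 19.2%, against 12% and 19.1% of all genes, median -1.12). Without Yap-on 2 or Yap-on 3 only 3 rose. Hnf4a, a nuclear receptor central to hepatocyte identity, stood at 8.56, 8.64 and 8.42 with Yap on and 9.41, 9.62 and 9.53 with Yap off, a difference of -0.98 ± 0.11 (adjusted p = 0.000781). It thus remained well above the array median in all Yap-on arrays. Prox1, a homeobox factor of hepatocytes, fell furthest, from 7.67, 8.22 and 8.46 to 4.16, 4.36 and 3.80 (difference -4.01 ± 0.23). Foxa3, the liver X receptor Nr1h3, Mlxipl, a glucose-responsive factor, and Ppara, the receptor of fasting lipid metabolism, fell by 3.07, 2.87, 2.47 and 2.33. Cebpa and Cebpb fell by 1.81 and 1.14, and the retinoid receptor Rxra fell by 1.90. The 3 forkhead factors of this list did not move together, since Foxa1 fell by 1.97 while Foxa2 stood at 7.04, 7.31 and 7.08 against 6.81, 6.401 and 6.28 and was not lower. The call of Foxa2 as higher (adjusted p = 0.0226) was lost without Yap-off 2 (0.0607), Yap-off 3 (0.0613), Yap-on 1 (0.0584), Yap-on 2 (0.0858) or Yap-on 3 (0.0569). Onecut2 and Onecut1, which act in both hepatocytes and bile ducts, rose by 1.48 and 1.09, and Gata6, a factor of endoderm, by 1.27. The bile acid receptor Nr1h4 and Nr0b2, a repressor it induces, differed by 0.88 and -0.36 and did not pass (adjusted p = 0.0842 and 0.242). Both group means of Nr0b2, 2.86 and 3.22, lay below the array medians.

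Among 33 epithelial regulators 15 rose and 4 fell (45.5% and 12.1%, against 19.1% and 12% of all genes, median 0.28). The largest differences belonged to factors of barrier-forming epithelia. Ehf stood at 10.20, 10.13 and 10.20 against 5.33, 5.54 and 5.43 and its relative Elf3, both of the ETS family, at 8.30, 8.35 and 8.18 against 4.16, 3.62 and 4.51. Grhl2, a regulator of epithelial junctions, stood at 6.90, 7.07 and 6.84 against 3.18, 3.27 and 3.11. For the 3 factors each Yap-on array lay more than 3 log2 units above each Yap-off array. The splicing regulator Esrp1 rose by 4.30 ± 0.14, whereas Esrp2, its close relative, differed by -0.26 (adjusted p = 0.197) and was well measured in both groups, at 6.83, 6.90 and 6.75 against 6.83, 7.35 and 7.08. Grhl1 and Grhl3, the relatives of Grhl2, differed by 0.28 and -0.08 and did not pass (adjusted p = 0.14 and 0.648). With Yap on and off Grhl1 averaged 4.48 and 4.20 and Grhl3 3.41 and 3.49, near or below the array medians. Klf5, a factor of gut and other epithelia, and Klf4 rose by 1.52 and 1.12, and Gata5 by 3.65. Pdx1, of pancreas and duodenum, rose by 2.25, while the intestinal factors Cdx1 and Cdx2 differed by -0.37 and 0.11 and did not pass (adjusted p = 0.0687 and 0.369). Cdx1 averaged 4.08 and 4.45 and Cdx2 3.38 and 3.27, near or below the array medians. Sox17, an endoderm factor, had 1 Yap-on array far below the others, at 6.64, 6.36 and 4.27 against 2.73, 3.15 and 3.14, and its call (adjusted p = 0.0128) was lost without Yap-on 2 (0.0502). The 4 decreases were those of Etv4, Etv5, Sox4 and Barx1. Without Yap-off 1 there were 7, without Yap-off 2 there were 2, and without Yap-on 1, 2 and 3 there were 0, 1 and 1.

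**Figure D4:**
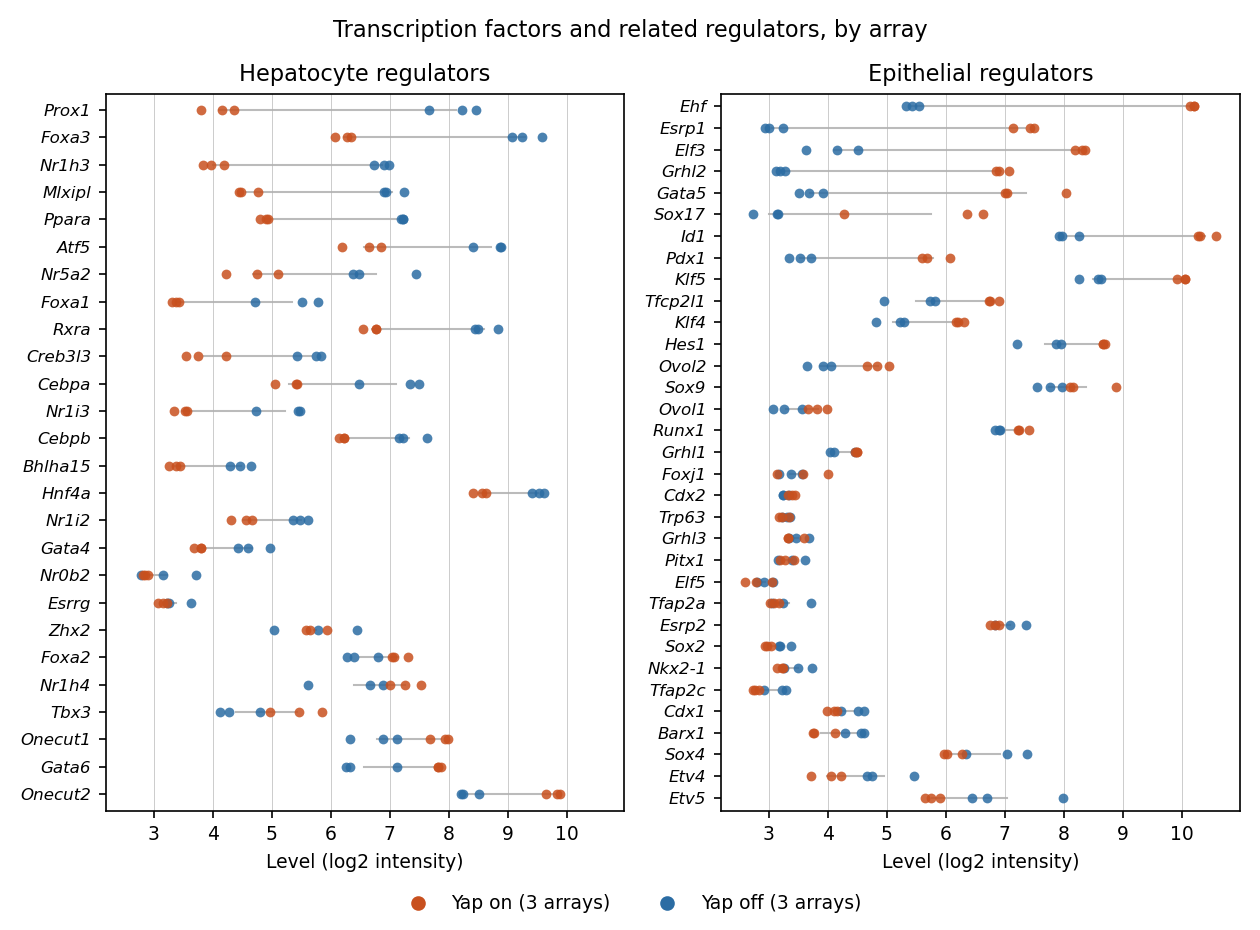
Levels (log2 intensity) of 26 hepatocyte regulators (left) and 33 epithelial regulators (right) in each of the 3 Yap-on and 3 Yap-off arrays, ordered by difference, with grey lines joining group means. Hnf4a lies at 8.56, 8.64 and 8.42 with Yap on and keeps a high level, while Ehf, Esrp1, Elf3 and Grhl2 lie more than 3 log2 units higher with Yap on.

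The level of Yap1 itself did not pass the test. Yap1 stood at 7.45, 7.40 and 7.28 with Yap on and at 7.35, 7.21 and 6.88 with Yap off, so the groups overlapped and the difference of 0.23 (95% interval -0.10 to 0.57) did not pass (adjusted p = 0.237). Whether the array detects the Yap sequence that was induced was not tested. Wwtr1, which encodes the Yap relative Taz, stood at 7.10, 7.12 and 7.16 against 8.08, 8.12 and 7.95, without overlap, and fell by 0.93 ± 0.09 (adjusted p = 0.000509). Vgll3, a cofactor that binds TEAD factors in competition with Yap, read 2.90, 3.09 and 3.11 and 6.85, 6.54 and 6.95 and fell by 3.74. Of 29 Hippo regulators 8 rose (27.6%, against 19.1% of all genes) and 4 fell (13.8%, close to the 12% of all genes), with a median of 0.13. The upstream regulators Nf2, Wwc1, Taok1 and Taok3 rose by 0.90, 0.82, 0.72 and 1.02, and Lats1 by 0.70, a call lost without Yap-on 1 (adjusted p = 0.0533). In that fit 5 regulators rose, and without each Yap-on library in turn 2 fell.

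Target genes of Yap and TEAD factors went both ways. Of 25 measured 8 rose (32%, against 19.1% of all genes) and 6 fell (24%, against 12%), with a median of 0.30. With all 12 arrays in the fit 1 rose and 1 fell, and with values below 5 raised to 5 there were 3 and 1. Ccn2, the most often used target, was among the strongest signals in both groups, at 11.04, 10.95 and 11.02 with Yap on and 10.54, 10.12 and 10.06 with Yap off, and rose by 0.77 ± 0.14 (adjusted p = 0.00766). Its relative Ccn1 stood at 8.99, 8.99 and 9.11 against 10.32, 9.67 and 10.04 and fell by 0.98 ± 0.17 (adjusted p = 0.00559). Ankrd1, another classical target, fell by 1.26, from 9.46, 9.13 and 9.39 to 7.68, 7.95 and 8.57. In these 3 genes the groups did not overlap, as in 53.5% of all genes, and their directions differed. The stress gene Gadd45b rose by 2.06, the membrane repair protein Myof by 1.63, tissue factor (F3) by 1.36, Dock5, an activator of Rac, by 0.97 and the phosphatase Ptpn14 by 0.65. The receptor kinase Axl and the kinase Nuak2 fell by 2.71 and 1.58. Lats2 and Amotl2, which inhibit Yap and are also its targets, differed by 0.00 and -0.52 and did not pass (adjusted p = 0.985 and 0.182). The other calls were those of Crim1 and Amotl1 as higher and Tgfb2 and Foxf2 as lower, and each was lost in some fit without 1 library. Crim1 was lost without Yap-on 1 (0.0514) or 2 (0.0516), Tgfb2 without Yap-on 1 (0.0569), 2 (0.0508) or 3 (0.0709), Amotl1 without Yap-off 2 (0.0774) or 3 (0.0972) or Yap-on 1 (0.118) or 2 (0.117), and Foxf2 in every fit but that without Yap-off 1 (0.072 to 0.144).

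**Figure D5:**
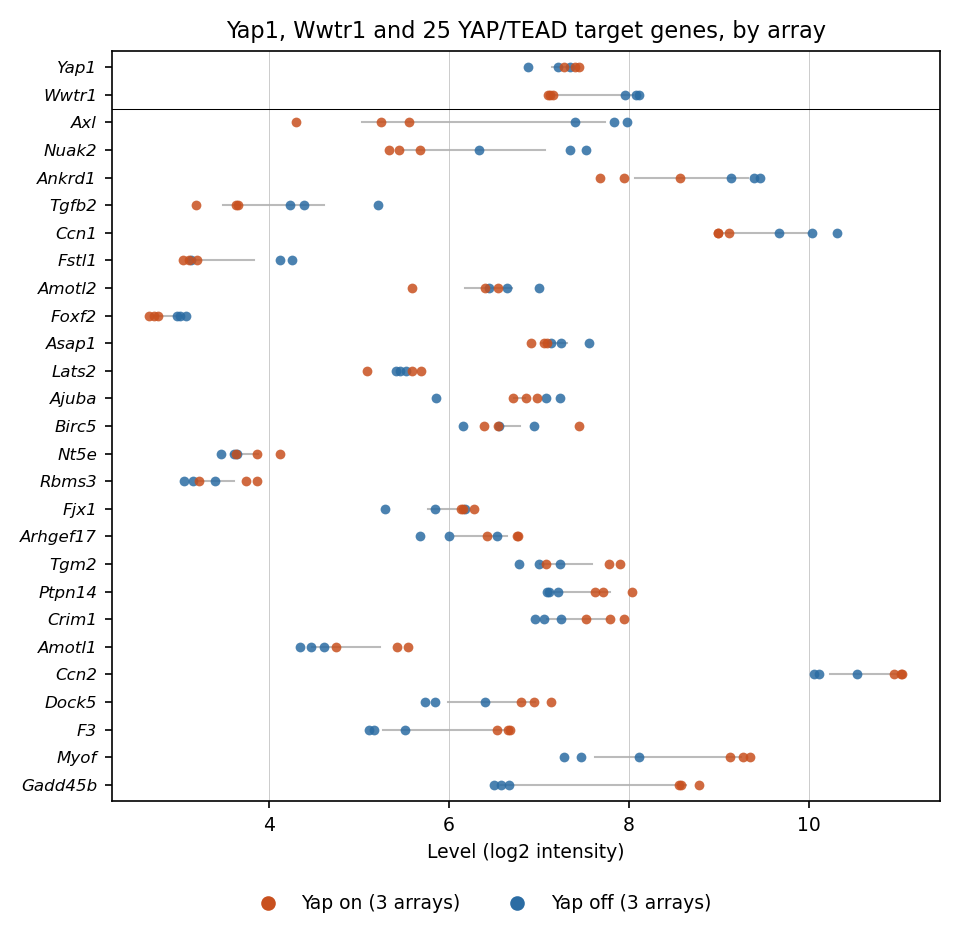
Levels (log2 intensity) of Yap1, Wwtr1 and 25 YAP/TEAD target genes in each of the 3 Yap-on and 3 Yap-off arrays, with grey lines joining group means and the targets ordered by difference. The targets run from Axl, lower by 2.71, to Gadd45b, higher by 2.06, and the Yap1 arrays of the groups overlap.

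Signalling genes moved as single ligands, receptors and targets. Of 27 genes of EGF and MET signalling 11 fell and 4 rose (40.7% and 14.8%, against 12% and 19.1% of all genes, median -0.41). Without Yap-on 1, 2 or 3, 2 rose. The ligand Tgfa and the receptor Egfr fell by 2.06 and 1.66, as did the feedback inhibitor Errfi1 (1.42 lower), while the co-receptor Erbb2 rose from 6.62, 6.04 and 5.87 to 7.88, 8.08 and 7.74. Mst1, a growth factor made by hepatocytes, fell by 4.95, and its receptor Mst1r rose by 1.37. Of 35 Wnt pathway genes 15 rose and 7 fell (42.9% and 20%, against 19.1% and 12% of all genes, median 0.35). The ligands Wnt7b and Wnt4 rose by 2.97 and 1.15, the effector Tcf7l2 by 2.27 and the feedback ligase Rnf43 by 1.03. The 7 decreases became 4 and 2 without Yap-off 2 and 3, and 3 without any of the Yap-on libraries.

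In the TGF-beta and BMP list 10 of 29 rose and 9 fell (34.5% and 31%, against 19.1% and 12% of all genes, median -0.17). Id1 and Id3, immediate targets of BMP signals, rose by 2.34 and 2.43, Id3 from 5.96, 5.99 and 6.02 to 8.22, 8.52 and 8.54. The inhibitory Smad7 and the TGF-beta target Pmepa1 rose by 1.26 and 1.92. The secreted antagonist Fst and the pseudoreceptor Bambi fell by 3.86 and 2.89. The 9 decreases became 6 without Yap-off 3 and 3 without each Yap-on library. Of 24 Notch genes 5 rose and 4 fell (median -0.05), shares of 20.8% and 16.7% close to the 19.1% and 12% of all genes. The ligand Jag2, the coactivator Maml2 and the target Hes1 rose by 2.20, 2.31 and 0.999. The 4 decreases became 0 without Yap-off 2, Yap-on 1 or Yap-on 2, 1 without Yap-on 3, 2 without Yap-off 3 and 6 without Yap-off 1.

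Glycolysis and hypoxia genes rose together, as 23 of 28 members were higher and none lower (82.1%, against 19.1% of all genes, median 1.34). Egln3, an oxygen-sensing hydroxylase, stood at 9.91, 9.90 and 9.74 against 5.46, 5.57 and 5.48, and Car9, a carbonic anhydrase induced by hypoxia, at 9.22, 8.97 and 8.33 against 3.07, 3.54 and 3.21. Enzymes of glycolysis itself rose by less, with Pfkl at 1.86, the regulator Pfkfb3 at 2.35 and lactate dehydrogenase (Ldha) at 1.02. Between 19 and 23 members rose when each library was left out, and 4 rose with all 12 arrays in the fit. The respiratory chain, in contrast, had 4 members higher and 3 lower of 35 (median -0.07), fewer than among all genes in both directions. Without Yap-on 1 there was 1 lower. Of 20 cholesterol synthesis genes 7 rose and 2 fell (35% and 10%, against 19.1% and 12% of all genes, median 0.34). Cyp51 was at 1.24 and Dhcr7 at -1.22. The 7 became 3, 4 and 4 without Yap-on 1, 2 and 3, and the 2 became 5 without Yap-off 1, 3 without Yap-on 3 and 1 without Yap-on 1.

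Of 21 NRF2 targets, the genes of the antioxidant response, 13 rose and 3 fell (median 0.99). These were 61.9% and 14.3%, against 19.1% and 12% of all genes. The aldo-keto reductases Akr1b8 and Akr1b10 stood at 9.42, 9.51 and 9.62 against 4.45, 4.36 and 3.92 and at 7.58, 7.69 and 7.51 against 4.36, 4.47 and 4.57. The glutathione peroxidase Gpx2 rose by 5.55, malic enzyme (Me1) by 2.63 and transketolase (Tkt) by 1.60. Osgin1 was a member that fell, by 1.56. Genes of the unfolded protein response and secretion had 15 of 30 members lower (50%, against 12% of all genes) and none higher (median -0.59). Pdia5 was at -2.39, Xbp1 at -1.13 and Hyou1 at -1.005. The number of lower members was 11 to 18 when each library was left out. It was 10 with all 12 arrays or with values below 5 raised to 5.

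Most replication and mitosis genes did not pass. Of 41 members 11 rose and 1 fell (29.3% called, against 31.1% of all genes), with a median of 0.57. By direction these were 26.8% higher and 2.44% lower, against 19.1% and 12% of all genes. None rose with all 12 arrays in the fit, 1 with values below 5 raised to 5 and 1 at an adjusted p under 0.01. Rrm2, a subunit of ribonucleotide reductase, rose from 7.08, 6.30 and 6.46 to 8.41, 8.39 and 8.38 (difference 1.78, adjusted p = 0.000832). Mki67 stood at 5.78, 5.45 and 6.70 against 4.75, 4.65 and 4.86, with Yap-on 3 the highest, as it was for Cenpe (4.21, 4.08 and 5.21 against 3.34, 3.16 and 3.25) and Ccnb2 (7.25, 7.32 and 8.204 against 6.66, 6.55 and 6.01). The 11 increases became 18 without Yap-off 1, 6 without Yap-off 2, 4 without Yap-off 3, 6 without Yap-on 1 and 6 without Yap-on 3, and the decrease, of Ccne1, was lost without Yap-off 1, Yap-off 2, Yap-on 1 or Yap-on 2. The Mki67 call (adjusted p = 0.022) was lost without Yap-off 2 (0.0592), Yap-off 3 (0.0514) or Yap-on 1 (0.055), and that of Ccnb2 (0.0222) without Yap-off 3 (0.0641). Of 22 p53 targets 9 rose and 3 fell (40.9% and 13.6%, against 19.1% and 12% of all genes, median 0.49). Eda2r, Ccng1 and Ephx1 were higher by 2.53, 1.05 and 0.88. Without Yap-on 1, 2 and 3 there were 4, 3 and 5 higher, and without Yap-on 1 or 3 there was 1 lower. Of 29 ribosomal protein genes 6 rose and none fell (median 0.16), 20.7% against 19.1% of all genes. The ribosomal calls fell to 3 and 2 without Yap-off 2 and 3, and to 0, 1 and 0 without Yap-on 1, 2 and 3.

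More fetal liver genes fell than rose. Of 22 fetal and progenitor genes 9 fell and 4 rose (40.9% and 18.2%, against 12% and 19.1% of all genes, median -0.35). The imprinted growth factor Igf2 stood at 4.22, 4.16 and 4.13 with Yap on and 9.03, 9.70 and 10.04 with Yap off, the glypican Gpc3 at 3.18, 3.29 and 3.06 against 10.47, 10.22 and 10.64, and the paternally expressed Peg3 at 4.03, 3.82 and 4.50 against 9.64, 8.73 and 9.61. Each was several log2 units lower in every Yap-on array. The chromatin protein Hmga2 and the RNA-binding protein Igf2bp3 fell by 2.62 and 1.39. Prom1, also on the list of biliary markers, was the member that rose most.

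Inflammatory genes were called in both directions. Of 35 chemokine and inflammation genes 11 fell and 8 rose (31.4% and 22.9%, against 12% and 19.1% of all genes, median -0.21). The chemokines Ccl9, Ccl2 and Cxcl12 fell by 5.76, 2.48 and 2.26, and the interleukin-6 receptor Il6ra by 2.72, whereas Cx3cl1, a membrane-bound chemokine, rose by 1.92. Of 26 interferon and antigen presentation genes 5 fell and 3 rose (median -0.11), so 30.8% were called, close to the 31.1% of all genes. By direction these were 19.2% lower and 11.5% higher, against 12% and 19.1% of all genes, and 9 fell without Yap-off 1. B2m, the light chain of class I molecules, stood at 10.61, 10.63 and 10.81 against 11.60, 11.70 and 11.71 and fell by 0.99, while the peptide transporter Tap1 and the antiviral Oas1a rose by 1.56 and 1.76.

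Most markers of blood and other liver cells lay below the array median in both groups, with exceptions on each list. On the linear scale the summed intensity of 15 endothelial markers was 180.4 to 191.2 in the Yap-on and 189.7 to 210.7 in the Yap-off arrays, and 11 of the 15 were below the array median on all 6 arrays. For 14 lymphocyte and neutrophil markers the sums were 134.4 to 143.4 and 157.4 to 165.7, with 12 below the median throughout and S100a8 and S100a9 not. For 15 macrophage markers they were 241.8 to 251.4 and 241.8 to 368.9, with 1 higher and 5 lower. These were 6.67% and 33.3% of the list, against 19.1% and 12% of all genes. Lyz2, a lysozyme of macrophages, fell from 5.50, 5.58 and 5.78 to 2.59, 3.04 and 3.11, whereas Adgre1, Clec4f and Marco stayed below the median on all arrays. The 5 decreases became 9, 3 and 3 without Yap-off 1, 2 and 3 and 2 and 3 without Yap-on 1 and 2, and the increase, of Cd68, was lost without Yap-on 1 (adjusted p = 0.134), 2 (0.111) or 3 (0.0706). For 15 stellate and fibroblast markers the sums were 165.9 to 176.7 with Yap on and 1204.4 to 1527.7 with Yap off, and in the Yap-off arrays most of the sum was Vim. Reln fell by 4.34 and Dcn by 2.20, while the collagen genes Col1a1 and Col1a2 differed by -0.37 and -0.29 and did not pass (adjusted p = 0.057 and 0.154). Of this list 4 fell (26.7%, against 12% of all genes), and 8 without Yap-off 1. For 6 red cell markers the sums were 149.7 to 186.9 and 130.1 to 160.4, and 4 were below the median throughout. The transferrin receptor Tfrc of that list, which dividing cells also express, read 6.86, 6.67 and 7.07 with Yap on and 6.70, 6.12 and 6.31 with Yap off. The part of these cells in the other differences was not tested.

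The arrays of a group varied little for most genes, and the Yap-off group varied more. The median SD of a gene was 0.1097 over the Yap-on and 0.1866 over the Yap-off arrays, and 24 and 133 genes had an SD above 1. Several of the widest spreads came from single arrays. Jph1, which ties plasma membrane to endoplasmic reticulum, stood at 10.15, 5.10 and 4.29 in Yap-off 1, 2 and 3, Klhl32 at 7.97, 2.62 and 2.65 and Npn2 at 7.02, 3.34 and 3.57. In these 3 genes Yap-off 1 was far above the other 2 arrays. In the Yap-off arrays the steroid enzyme Cyp17a1 stood at 3.51, 5.10 and 6.67 and the chemokine Cxcl5 at 7.18, 4.02 and 6.38. In the Yap-on group Wfdc18 stood at 4.68, 4.23 and 7.75, the trefoil peptide Tff1 at 4.89, 8.04 and 4.83 and the mucin Muc3 at 6.56, 3.15 and 5.53, with Yap-on 3 far above the others for Wfdc18, Yap-on 2 above them for Tff1 and Yap-on 2 below them for Muc3. None of these 8 genes was called. The fit called 7846 genes without Yap-off 1.

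Some of the strongest signals did not differ. Among the 10 highest ranked genes of the Yap-on organoids were the ribosomal proteins Rps29 and Rplp1, the surface protein Ly6e and the elongation factor Eef1a1. Their differences of -0.03, 0.00, -0.03 and 0.14 did not pass. The 10 highest ranked genes of the Yap-off organoids included Apoa2, Apoa1, Apoe, Apoc1 and Alb, so that 5 of the 10 were liver products that fell with Yap on.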

How the data were processed

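The authors deposited array intensities made with RMA, per the submitters' processing notes (version not given), on a linear scale as the values show. Genome build and array reader settings are not given in the sources used here. These intensities were turned into log2 values. Of 34760 rows 21640 named 1 gene, and for each of 19937 genes the row with the highest mean over the 6 arrays was kept, whatever its group. Yap-on and Yap-off arrays were compared in limma 3.58.1 (R 4.3.3) on these 6 arrays only, with empirical Bayes moderation and Benjamini-Hochberg adjustment over all genes, and a threshold of 0.05. The script was tested on simulated data. With 3 arrays a group the smallest two-sided permutation p-value is 0.1, and the number of arrays limits the precision. Genes were named by rank of the difference among all genes, among genes at 6 or more in both groups and within each list. Others were named by spread, by level and as members of the regulator and target lists. The ranks among all genes and at 6 or more took only called genes whose groups did not overlap. These ranks and those by spread and level left out sex-linked genes and symbols of clones, predicted genes, microRNAs and large multigene families. Ttr, Ambp, Anxa7, Bicc1, Ccne1, Cdh1, Cftr, Ldha and Sctr lie outside this rule and were chosen after their values were seen. The members and lists were chosen with earlier results of these data known. Listed genes without a row are not analysed here. Promoters came from RefSeq.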

Additional observations from a re-analysis of the deposited data

How the results depend on the processing

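The count of called genes (6210) was most affected by how low values and the spread were treated. With values below 5 raised to 5, 2412 genes were called, 1715 higher and 697 lower, and 1430 by at least 2-fold. With 16 added to each intensity 1650 differed by at least 2-fold. With all 12 arrays in the fit 2286 were called, 1415 higher and 871 lower, 1546 by at least 2-fold, and 2285 of them were also called with 6 arrays. At an adjusted p under 0.01 there were 3296 calls, 2193 higher and 1103 lower. Leaving out 1 library gave 3766 to 7846 calls, 2497 to 4343 higher and 1269 to 3503 lower, with 2223 to 2834 of at least 2-fold. Deviations of same-numbered arrays correlated at 0.0706, 0.027 and -0.0644, and a replicate block gave 5401 calls. With so few arrays these values cannot tell whether replicate numbers paired the samples. Some genes changed sign. Cep350 was 0.70 as the mean of its rows, Rpl19 was -0.14 and Rpl5 -0.081 on their most variable row, and without 1 library in turn Cep350 ranged from -0.67 to 0.93, Jph1 from -1.76 to 1.17 and Klhl32 from -1.44 to 1.23, each highest without Yap-off 1. The cause was not tested. Genes near background have understated or uncertain differences.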

Other observations

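The microRNA cluster of Mir200a and Mir200b, known as a guardian of epithelial state, was looked at after its values were seen. The rows measure the gene or its precursor, not the mature form. Mir200a stood at 5.22, 5.48 and 5.27 with Yap on and 3.66, 3.39 and 3.61 with Yap off (difference 1.77 ± 0.12 SE, adjusted p = 8.31e-05 in limma). Its groups were apart. Mir200b stood at 4.46, 5.29 and 4.50 against 5.73, 2.89 and 2.46, where Yap-off 1 was the highest array of all (difference 1.05, adjusted p = 0.334). The mature forms of the family, from RefSeq (GRCm38.p6), are shown with the seed, bases 2 to 8, in capitals.
mmu-miR-200a-3p: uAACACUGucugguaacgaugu
mmu-miR-141-3p: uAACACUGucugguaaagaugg
mmu-miR-200b-3p: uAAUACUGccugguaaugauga
mmu-miR-200c-3p: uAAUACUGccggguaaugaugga
The forms of Mir200a and Mir141 share 1 seed and those of Mir200b and Mir200c the other. Mir141 and Mir200c differed by 0.23 and 0.18 and were not called. Their means with Yap on and off, 2.99 and 2.76 for Mir141 and 3.32 and 3.14 for Mir200c, lay below the array medians. Of 300 microRNA genes with a row, 9 were higher (3%, against 19.1% of all genes) and 29 lower (9.67%, against 12%).

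Of the 954 genes with several rows, 11 had rows called in opposite directions, among them Celf1, Dock6, Dyrk1a, Rpl13 and Trio. Of 11799 rows that the probe table did not list, 1359 were called (11.5%), against 6936 of all rows (20%).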
